A study of Homo sapiens with 32 samples.

Results

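Metallothioneins are small, cysteine-rich proteins that bind zinc, copper and cadmium in clusters of thiolate groups and act as an intracellular buffer for these metals. When free zinc rises, the zinc finger protein MTF1 binds metal response elements in their promoters, and the same factor drives SLC30A1, which carries zinc out of the cell. The MT1 and MT2 genes are widely inducible by metals, oxidants and glucocorticoids, whereas MT3 is best known from brain. The genes described here are MT1E, MT1F, MT1G, MT1H, MT1M, MT1X and MT2A, 7 of 22610 rows of the expression table, found by their symbols. They were chosen by their higher FPKM under cannabidiol (CBD) than in vehicle in these same samples, so the difference between CBD and vehicle is given for them as a description with no test.

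RNA-Seq was performed in SK-N-BE(2), a human MYCN-amplified neuroblastoma line. Cells received 20 μM CBD dissolved in ethanol, or 0.1% ethanol as vehicle, and were harvested at 3, 6, 12 and 24 h. Each of the 8 groups held 4 replicate cultures, 32 samples in all, and ethanol was common to both arms. Every sample came from a single cell line, and nothing in the labels says whether replicates were grown on separate days, so tests measure the spread between these cultures only. Levels are FPKM (fragments per kilobase of transcript, scaled to the mapped reads of each sample). Genes are set side by side on the basis that FPKM are per length. How well that correction holds between these genes was not tested. Read totals are unknown, but relative depth estimated from the steps of low values in 1414 genes ranged from 0.787 to 1.202, and 19359 to 19962 entries per sample were above 0. All 10 adrenergic neuroblastoma markers were detected, with MYCN at a mean of 1762 FPKM and the noradrenaline-synthesising enzyme DBH at 7.17 FPKM, while of the blood markers PTPRC did not exceed 0.0305 FPKM and CD3E 0.0233 FPKM in any sample, and CD68 ranged from 0.386 to 0.860 FPKM. Of the mesenchymal markers, COL1A2 and PRRX1 were close to 0, and COL3A1 averaged 0.230, COL1A1 1.502 and DCN 7.14 FPKM. LUM ranged from 44.1 to 67.8 FPKM, and the part of these genes in the results was not tested. In lysates of whole wells, more transcript per cell and a larger number of expressing cells cannot be told apart.

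All 7 genes lie on chromosome 16 within 75.6 kb of GRCh37, in a metallothionein cluster that spans 119.1 kb from MT4 to MT1X. MT2A occupies 56642496 to 56643409, MT1E 56659387 to 56661024, MT1M 56666571 to 56667893 and MT1F 56691643 to 56694610, each on the plus strand. Further along the chromosome, MT1G occupies 56700642 to 56701977 on the minus strand, MT1H 56703726 to 56705041 and MT1X 56716382 to 56718108, the last 2 on the plus strand. The genes are so alike that part of their sequence is shared. Of all stretches of 50 bases, the read length, in the annotated transcripts, 1.24% in MT1F, 4.48% in MT2A, 7.10% in MT1E, 15.8% in MT1H, 16.4% in MT1G, 18.2% in MT1M and 18.7% in MT1X also occur in another transcript. For MT1X, 273 of its 341 shared stretches belong to ENSG00000259827, a non-coding RNA that overlaps it on the same strand. The percentages pool all annotated transcripts of a gene, from 461 different stretches in MT1M to 1934 in MT1F. They therefore depend on how much sequence is annotated, and the share within the expressed transcripts was not tested. Only exact matches were counted, whereas the authors' alignment allowed 2 mismatches, so reads that fit several copies could be more frequent than these percentages. Values of single genes are therefore uncertain by the reads that could have been split between such copies.

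Metal response elements are the part of these promoters that MTF1 recognises. Promoters from 250 bases before to 50 bases after the transcription start were found for 3 of the 7 genes in the RefSeq set for GRCh38.p14, those of MT2A (chr16:56608334-56608633), MT1X (chr16:56682220-56682519) and MT1H (chr16:56669564-56669863), all on the plus strand. MT1E, MT1F, MT1G and MT1M had no entry. These 3 are shown 5′ to 3′ since they are the promoters at hand in which the letters that MTF1 recognises can be seen, and capitals mark each match to the metal response element core, TGCACNC or TGCGCNC on either strand.
MT2A: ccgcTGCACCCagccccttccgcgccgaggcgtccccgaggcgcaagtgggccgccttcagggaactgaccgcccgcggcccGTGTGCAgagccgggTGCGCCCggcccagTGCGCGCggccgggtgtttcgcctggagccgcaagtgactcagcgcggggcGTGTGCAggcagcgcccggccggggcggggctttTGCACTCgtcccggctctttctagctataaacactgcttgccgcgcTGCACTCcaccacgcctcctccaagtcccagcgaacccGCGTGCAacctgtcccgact
MT1X: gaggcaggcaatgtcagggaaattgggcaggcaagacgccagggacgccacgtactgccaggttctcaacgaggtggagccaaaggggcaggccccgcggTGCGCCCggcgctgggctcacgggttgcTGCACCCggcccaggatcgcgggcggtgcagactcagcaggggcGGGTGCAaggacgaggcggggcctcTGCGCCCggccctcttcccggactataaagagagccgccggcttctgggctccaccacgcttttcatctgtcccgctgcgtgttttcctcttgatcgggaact
MT1H: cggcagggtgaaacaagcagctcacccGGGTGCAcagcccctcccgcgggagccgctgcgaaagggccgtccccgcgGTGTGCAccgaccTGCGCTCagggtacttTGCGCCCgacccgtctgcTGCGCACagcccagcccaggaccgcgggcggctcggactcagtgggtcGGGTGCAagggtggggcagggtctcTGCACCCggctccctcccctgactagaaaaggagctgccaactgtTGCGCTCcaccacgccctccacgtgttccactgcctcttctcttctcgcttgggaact
The core occurred 8 times in MT2A, 4 times in MT1X and 8 times in MT1H. Of 35116 promoters of the same length, 29.551% held at least 1 match, 0.601% at least 4 and 0.02% at least 8. In MT2A and MT1H, a match began 8 bases before the start (position -8), and all 3 promoters had one that began at position -54 or -53. The core of the antioxidant response element, TGACNNNGC on either strand, which overlapped no capitalised match, was found once in MT2A at position -104, once in MT1X at position -243 and not in MT1H, against 13.347% of all promoters with at least 1. Matches describe the letters only, and no binding was measured.

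In vehicle cultures, of the 7 genes only MT2A and MT1X were present above 1 FPKM. MT2A ranged from 6.52 to 13.3 FPKM over the 16 vehicle samples, with a median of 10.8, and MT1X from 4.21 to 10.03 FPKM, with a median of 7.30. The other 5 genes stayed below 0.6 FPKM in every vehicle sample. MT1H was listed at 0 in 14 of the 16 and MT1M in 13 of the 16. Medians of MT1E, MT1F and MT1G in vehicle were 0.236, 0.315 and 0.144 FPKM, and their ranges overlapped one another. All 7 genes passed the filter of a mean of at least 1 FPKM over the 32 samples, but MT1E, MT1F, MT1G, MT1H and MT1M did so through the CBD samples alone. MT1H was the member closest to the filter, with a mean of 1.55 FPKM, and MT1L, a transcribed pseudogene, was the nearest metallothionein row outside it, with 0.377 FPKM.

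Under CBD, the mean of every member was highest at 6 h and lower at 12 and 24 h. MT2A, usually the most abundant human isoform, measured 96.7, 132.2, 99.9 and 79.5 FPKM in the 4 CBD cultures at 3 h, against 11.2, 12.2, 13.3 and 10.5 FPKM in vehicle. At 6 h its CBD values were 245.4, 523.5, 310.1 and 250.9 FPKM, against 11.8, 10.4, 12.0 and 11.5 FPKM. All CBD cultures stood above all vehicle cultures at both times, and replicate 2 was the highest CBD culture at each. At 12 h MT2A measured 186.2, 204.3, 209.5 and 169.3 FPKM under CBD, against 10.9, 9.05, 11.1 and 10.7 FPKM. By 24 h it had declined to 25.2, 32.2, 34.6 and 22.6 FPKM, against 8.16, 10.3, 7.66 and 6.52 FPKM, and the arms still did not overlap. The mean under CBD was 8.66, 29.1, 18.4 and 3.51 times the vehicle mean at 3, 6, 12 and 24 h.

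MT1X, the other gene with clear expression in vehicle, had the same peak time and a lower level at 24 h relative to it. Its 4 CBD values were 67.4, 88.4, 70.3 and 49.8 FPKM at 3 h and 154.8, 350.1, 198.2 and 148.7 FPKM at 6 h. The vehicle values at those times were 10.03, 9.75, 7.76 and 8.33 FPKM, and 7.59, 7.54, 7.22 and 7.46 FPKM. Every CBD culture lay above every vehicle culture. At 12 h MT1X had come down to 68.95, 76.2, 75.9 and 65.0 FPKM, against 7.39, 6.24, 6.13 and 6.13 FPKM. At 24 h the 4 CBD values were 8.24, 8.08, 9.26 and 5.85 FPKM, against 4.22, 5.57, 4.97 and 4.21 FPKM. The arms came closest there, with the lowest CBD culture at 5.85 FPKM just above the highest vehicle culture at 5.57 FPKM. Ratios of the means were 7.69, 28.6, 11.05 and 1.66 at 3, 6, 12 and 24 h.

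MT1G and MT1E were nearly silent in vehicle and reached 49.2 to 260.2 FPKM under CBD at 6 h. MT1G measured 29.0, 42.8, 27.9 and 22.3 FPKM under CBD at 3 h, 106.1, 260.2, 138.4 and 95.8 FPKM at 6 h, 91.4, 111.9, 112.2 and 75.2 FPKM at 12 h and 7.70, 9.49, 10.996 and 7.96 FPKM at 24 h, while no vehicle sample exceeded 0.393 FPKM. The ratio of means was 576.2 at 6 h, and it rests on a vehicle mean of 0.261 ± 0.137 FPKM (SD, n = 4). MT1G thus held most of its level at 12 h and lost it between 12 and 24 h. MT1E measured 16.4, 28.6, 20.5 and 11.2 FPKM at 3 h, 50.7, 157.4, 67.5 and 49.2 FPKM at 6 h, 20.3, 24.1, 26.6 and 17.5 FPKM at 12 h and 3.40, 1.28, 5.36 and 1.53 FPKM at 24 h, with vehicle at or below 0.587 FPKM. In contrast to MT1G, MT1E had lost most of its 6 h level by 12 h.

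The remaining 3 genes were lower. MT1F rose from 6.99, 10.2, 5.57 and 7.77 FPKM at 3 h to 23.3, 44.6, 28.1 and 23.4 FPKM at 6 h, kept 23.8, 24.9, 21.9 and 22.0 FPKM at 12 h and had 5.55, 5.96, 7.34 and 4.43 FPKM at 24 h, with vehicle at or below 0.560 FPKM. Its 6 h and 12 h values overlapped. MT1M gave 2.04, 5.004, 2.78 and 2.04 FPKM at 3 h, 7.70, 34.8, 13.0 and 8.53 FPKM at 6 h, 5.65, 6.67, 8.02 and 4.94 FPKM at 12 h and 1.14, 0.345, 1.28 and 0.905 FPKM at 24 h. MT1H, the lowest of the 7 from 3 to 12 h, gave 0.904, 0.564, 0.201 and 0.485 FPKM at 3 h, 4.76, 11.5, 5.48 and 4.23 FPKM at 6 h, 3.62, 5.43, 5.24 and 3.07 FPKM at 12 h and 1.02, 1.05, 1.11 and 0.738 FPKM at 24 h. No fold is given for MT1M and MT1H, since vehicle groups were listed at 0 in whole or in large part.

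**Figure D1:**
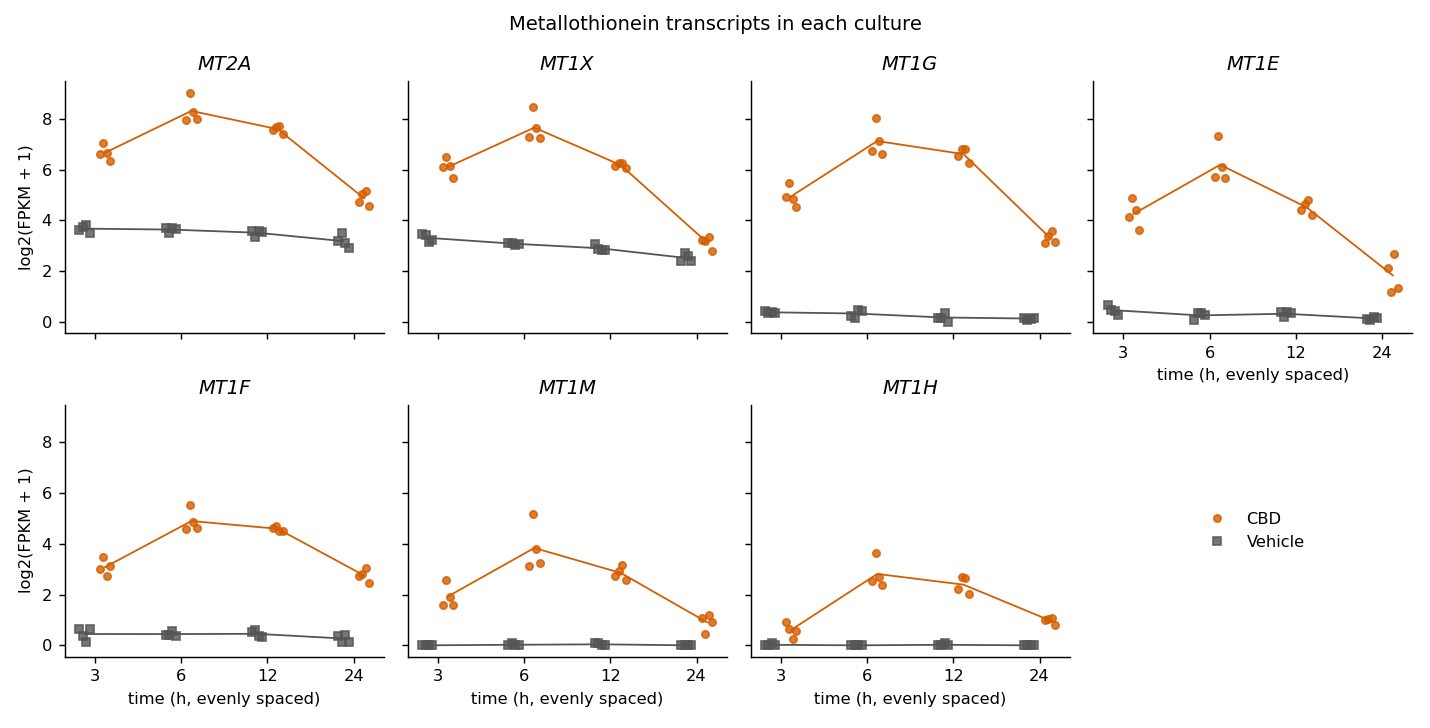
FPKM of the 7 metallothionein genes in each culture, as log2(FPKM + 1) on the vertical axis and time in h, evenly spaced, on the horizontal axis. Circles are CBD cultures, squares are vehicle cultures and lines join the group means of the log values, and in every panel the 4 CBD cultures lie above the 4 vehicle cultures at each time, with the highest mean at 6 h.

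All 4 CBD cultures were above all 4 vehicle cultures for 7 of the 7 genes at each time. Among all 12621 genes tested, 5.52, 8.46, 13.4 and 25.1% were separated in this direction at 3, 6, 12 and 24 h, and since the genes were chosen for this difference nothing further is read from it. On the log2(FPKM + 1) scale, which understates the change of low genes, the differences between CBD and vehicle at 6 h ran from 2.81 for MT1H and 3.81 for MT1M through 4.45 for MT1F, 4.57 for MT1X and 4.67 for MT2A to 5.93 for MT1E and 6.80 for MT1G. This order depends on the 1 FPKM added, and with 0.1 added the lowest were MT1X at 4.73 and MT2A at 4.78. At 24 h they ran from 0.62 for MT1X to 3.19 for MT1G.

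The change of the CBD effect from one time to the next was fitted as an interaction in limma, across all genes, with Benjamini-Hochberg adjustment and a threshold of 0.01. Since the genes were chosen by their CBD values in the same samples, with the peak at 6 h known, and 5 of them passed the filter through those samples alone, the estimates are given as a description with their SE, and nothing is read from the counts against all genes. Between 3 and 6 h the effect was larger past the threshold for 7 of the 7 genes, where 0.705% of all genes tested were called in this direction. On the log2(FPKM + 1) scale the estimates were 2.23 ± 0.29 (SE) for MT1G, 2.23 ± 0.25 for MT1H, 2.14 ± 0.42 for MT1E, 1.89 ± 0.39 for MT1M, 1.82 ± 0.23 for MT1F, 1.78 ± 0.26 for MT1X and 1.68 ± 0.25 for MT2A. The SEs are large against the differences among the genes, so their order is not distinguished. For MT1H and MT1M, with most vehicle samples at 0, the size of all such differences depends on the 1 FPKM added before the logarithm.

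From 6 to 12 h, the effect was smaller past the threshold for 1 of the 7 genes, MT1X, where 0.895% of all genes tested were called in this direction. The estimate for MT1X was -1.29 with an SE of 0.26. MT1E, at -1.74 with an SE of 0.42, was past the threshold only under some settings, among them when any of 6 CBD libraries was left out, replicates 2 and 4 at 3 h, 1 and 4 at 6 h, or 2 and 3 at 24 h. The estimates for MT1M, MT2A, MT1H, MT1G and MT1F were -1.0, -0.60, -0.44, -0.36 and -0.31, none past the threshold.

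Between 12 and 24 h the effect was smaller past the threshold for 7 of the 7 genes, where 3.45% of all genes tested were called in this direction. The estimates were -3.25 ± 0.29 (SE) for MT1G, -2.66 ± 0.26 for MT1X, -2.5 ± 0.42 for MT1E and -2.39 ± 0.25 for MT2A. For MT1M, MT1F and MT1H they were -1.90 ± 0.39, -1.65 ± 0.23 and -1.39 ± 0.25. Which gene had the smallest decline depended on the value added before the logarithm, MT1H with 1 FPKM added and MT1F with 0.1, where the estimates were -1.85 for MT1H and -1.32 for MT1F.

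The isoforms kept different parts of their peak level. The excess, the CBD value minus the vehicle mean of the same time, is given as a percent of the mean excess at 6 h, with no test because the measure was built for these genes. At 12 h, MT1F retained 77.2 ± 4.97% (SD, n = 4), MT1H 66.7 ± 18.1%, MT1G 65.1 ± 11.9% and MT2A 56.7 ± 5.70%. MT1M retained 39.4 ± 8.37%, MT1X 31.7 ± 2.68% and MT1E 27.0 ± 4.98%. The cultures of MT1F, from 73.0 to 83.3%, lay above all those of MT1M, MT1X and MT1E, which together spanned 21.3 to 50.0%, while MT1F, MT1H and MT1G overlapped one another. At 24 h, MT1F retained 19.0 ± 4.09% and MT1H 15.1 ± 2.56%, and their cultures, from 11.4% upward, were above those of the other 5 genes, which did not exceed 8.23%. MT1X retained the least, 1.52 ± 0.70%, although its highest culture at 2.199% overlapped the lowest of MT1E and MT1M.

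These percentages depend on replicate 2 of the 6 h CBD group, which sets much of the 6 h mean. Without it, 92.7% of the excess remained at 12 h for MT1F, 89.7% for MT1H, 86.2% for MT1G, 70.7% for MT2A, 64.7% for MT1M, 40.7% for MT1X and 39.4% for MT1E. The order of the genes at 12 h and the peak at 6 h stayed as they were, whereas the order at 3 h and at 24 h did not. Between 12 and 24 h, an interval that does not involve that culture, the mean excess fell 20.9-fold for MT1X, 10.9-fold for MT1G, 8.88-fold for MT2A, 7.84-fold for MT1E, 6.87-fold for MT1M, 4.41-fold for MT1H and 4.06-fold for MT1F. Expressed as the time for the excess to fall by 50%, this was 2.74 h for MT1X, 3.48 h for MT1G, 3.81 h for MT2A, 4.04 h for MT1E, 4.32 h for MT1M, 5.604 h for MT1H and 5.94 h for MT1F. Such times combine synthesis and loss of transcript and are not mRNA half-lives. The folds and times come from group means and carry no spread. At 24 h the MT1X cultures ran from 0.541 to 2.199% of the mean 6 h excess, and those of MT1E from 1.45 to 6.49%. Those of MT1G lay closer together, from 5.07 to 7.27%. The order of neighbouring genes in these folds and times is therefore not established.

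**Figure D2:**
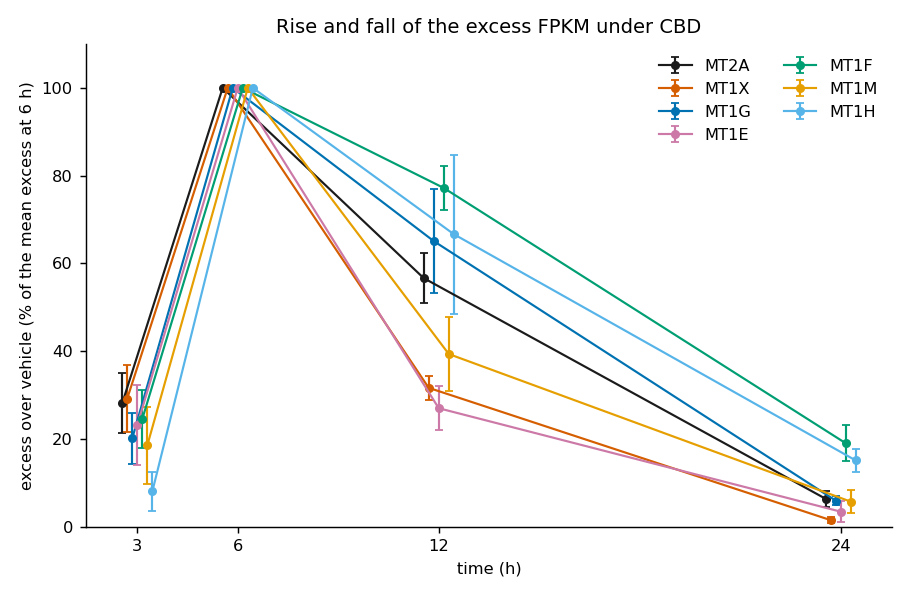
Excess of each metallothionein transcript over vehicle, as a percent of its mean excess at 6 h, against time in h. Points are means of 4 CBD cultures and bars are the SD of the cultures at that time. The 6 h mean is set to 100 and its spread is left out, and points are shifted sideways for legibility. MT1F, MT1H, MT1G and MT2A kept more than 50% at 12 h, whereas MT1M, MT1X and MT1E kept 27.0 to 39.4%. Without replicate 2 of the 6 h CBD group, MT1M kept 64.7%, MT1X 40.7% and MT1E 39.4%, so the place of MT1M rests on that culture.

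The summed FPKM of the 7 genes was 21.8 ± 1.39, 19.7 ± 0.69, 17.7 ± 1.31 and 13.3 ± 2.06 (SD, n = 4 each) in vehicle at 3, 6, 12 and 24 h. Under CBD it was 231.8 ± 55.96, 829.1 ± 377.7, 417.5 ± 48.4 and 56.1 ± 10.9. MT2A and MT1X together made up 95.1 to 96.9% of this sum in vehicle. Under CBD their joint share at these times was 74.0 ± 1.57%, 66.6 ± 2.40%, 63.4 ± 1.74% and 65.1 ± 2.72%, and no CBD culture reached the lowest vehicle culture at 93.4%.

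MT2A was the largest single contributor in every group, with 54.0 to 61.1% in vehicle and 40.8 to 51.0% under CBD. MT1X contributed 35.8 to 41.1% in vehicle, and its share under CBD went from 29.8 ± 1.21% at 3 h to 25.8 ± 0.37%, 17.2 ± 0.73% and 14.0 ± 1.18% at 6, 12 and 24 h. MT1G went the other way up to 12 h, from 13.1 ± 0.68% through 17.9 ± 0.99% to 23.3 ± 1.66%, and was back at 16.2 ± 1.41% at 24 h. At 12 h MT1G had thus overtaken MT1X, with the lowest MT1G share at 21.1% and the highest MT1X share at 18.2%. The part of MT1F increased over the course, from 3.36 ± 0.84% at 3 h to 10.3 ± 0.26% at 24 h. MT1E contributed 8.05, 9.32, 5.27 and 4.96% at 3, 6, 12 and 24 h, MT1M 1.24 to 1.75% and MT1H 0.241 to 1.75%.

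**Figure D3:**
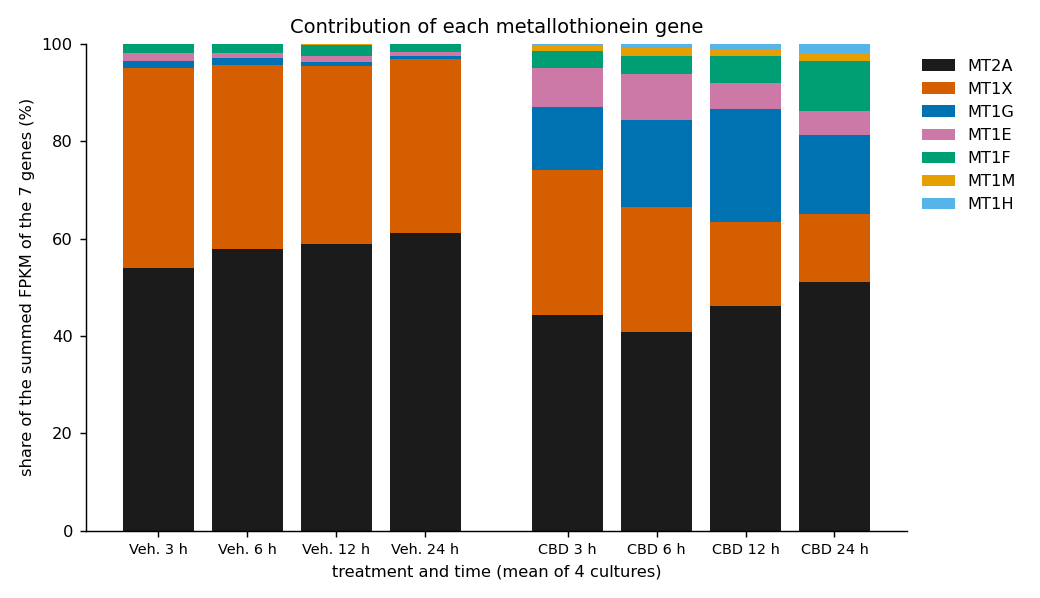
Share of each gene in the summed FPKM of the 7 metallothionein genes, in percent, for vehicle (Veh.) and CBD at 3, 6, 12 and 24 h. Each bar is the mean of 4 cultures. MT2A and MT1X fill 95.1 to 96.9% of the vehicle bars and 63.4 to 74.0% of the CBD bars, where MT1G, MT1E and MT1F take most of the rest.

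The level of MT1X relative to MT2A cancels differences between cultures that act on both genes, and was examined after the values had been seen. Under CBD the ratio was 0.674 ± 0.035, 0.633 ± 0.031, 0.372 ± 0.0088 and 0.276 ± 0.034 at 3, 6, 12 and 24 h (SD, n = 4 each). The CBD cultures at 6 and 12 h did not overlap, nor did those at 12 and 24 h. In vehicle the ratio was 0.769 ± 0.130, 0.654 ± 0.051, 0.624 ± 0.071 and 0.589 ± 0.069 at the same times, and consecutive groups overlapped. CBD and vehicle overlapped at 3 and 6 h but were separate at 12 and 24 h.

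**Figure D4:**
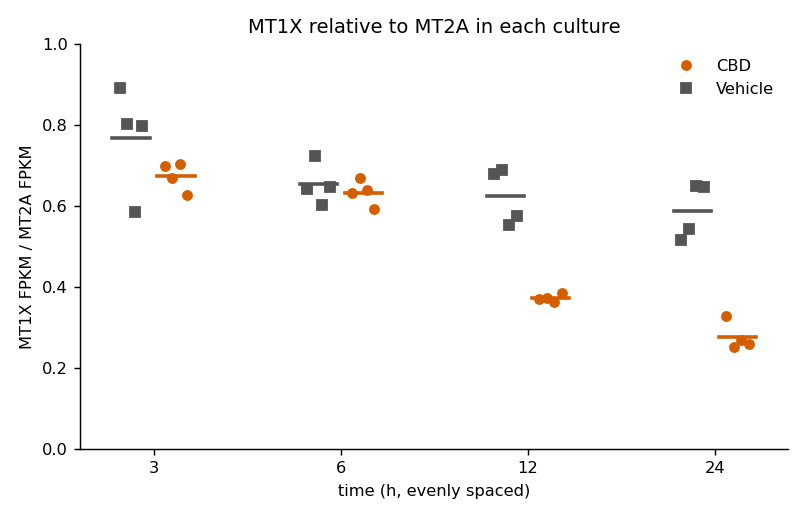
Ratio of MT1X FPKM to MT2A FPKM in each culture, against time in h, evenly spaced. Circles are CBD cultures, squares are vehicle cultures and bars are group means. CBD cultures range from 0.593 to 0.669 at 6 h and from 0.362 to 0.384 at 12 h, while vehicle cultures stay between 0.516 and 0.891 throughout.

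Replicate 2 of the 6 h CBD group was the highest of its group for 7 of the 7 genes, 1.91 to 4.08 times the median of the other 3 cultures. In the same culture SLC30A1 was 1.08 times and HMOX1, a heme-degrading enzyme, 1.17 times the median of the others, and its relative depth was 1.07 against 0.958 to 0.965. The metallothioneins moved together between cultures in other groups too, since CBD 24 h replicate 3 was highest for 7 of the 7 genes and CBD 3 h replicate 2 for 6 of them. Over the 16 CBD samples, deviations from the group means correlated between pairs of members with r from 0.634 to 0.965 and a median of 0.824. Leaving out the 6 h replicate 2, the range was 0.417 to 0.939 with a median of 0.699. These genes share libraries, depth and part of their sequence. The estimates from 3 to 6 h and from 12 to 24 h were past the threshold for 7 genes when any single library was left out. That is a description only, since the genes were chosen by their CBD values in these samples.

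In vehicle, the means of MT1X and MT2A were lower at each later time. MT1X means were 8.97 ± 1.09, 7.45 ± 0.16, 6.47 ± 0.61 and 4.74 ± 0.66 FPKM (SD, n = 4 each) at 3, 6, 12 and 24 h, and the cultures did not overlap between 3 and 6 h or between 12 and 24 h. MT2A means were 11.8 ± 1.21, 11.4 ± 0.72, 10.4 ± 0.94 and 8.15 ± 1.56 FPKM, with overlap at each step. None of the 7 genes passed the limma threshold between consecutive vehicle times, where 3.22, 1.65 and 23.5% of all genes were called lower at the 3 steps. MT1E, MT1F, MT1G, MT1H and MT1M did not exceed 0.587 FPKM in any vehicle sample. With 1 FPKM added before the logarithm they had little room to fall, so this count can speak only for MT1X and MT2A. Without adjustment, the limma p was below 0.05 for 1 gene at 1 step, MT1X from 12 to 24 h, whose limma adjusted p was 0.0813. That model takes its spread from all 32 samples, the more variable CBD cultures included. In a limma fit of the vehicle samples alone, added after the data were seen, MT1X was lower at 24 h than at 12 h by 0.38 on the log2 scale (adjusted p = 0.00202), and MT2A missed the threshold (adjusted p = 0.0165). An exact permutation test at this step gave p = 0.0286 for MT1X and 0.0571 for MT2A, and an adjusted p of 0.0857 for each. With 4 cultures per group the permutation p cannot be smaller than 0.0286, so this test could not reach the threshold.

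The table held 7 other metallothionein rows, none of which passed the filter. MT1L averaged 1.12 ± 0.48 FPKM under CBD at 6 h, against 0.105 ± 0.079 FPKM in vehicle (SD, n = 4 each), and its arms were separate at 3, 6 and 12 h but not at 24 h. MT1A, a functional gene of the cluster, was listed at 0 in 15 of 16 vehicle samples and reached 1.12 FPKM in CBD 6 h replicate 2. MT3 was listed at 0 in 12 of 16 vehicle and 14 of 16 CBD samples, with no value above 0.0992 FPKM. MT1B, MT1DP, MT1IP and MT1JP stayed below 0.6 FPKM throughout.

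Zinc transporters were examined because they handle the metal that metallothioneins bind. Of 17 zinc handling genes tested, 2 were higher and 1 lower under CBD at 6 h by limma, and 3 were higher and 3 lower at 24 h. Over all genes, 4.07% were called higher and 6.13% lower at 6 h, and 20.8% higher and 21.3% lower at 24 h. The median log2 difference of the list at 6 h was 0.028, against -0.005 over all genes. The zinc exporter SLC30A1 averaged 33.9 ± 1.97, 24.7 ± 1.26, 12.0 ± 0.34 and 5.87 ± 0.17 FPKM under CBD at 3, 6, 12 and 24 h, against 8.50 ± 0.19, 6.46 ± 0.36, 5.81 ± 0.14 and 4.71 ± 0.14 FPKM in vehicle (SD, n = 4 each). Its CBD mean was thus already highest at 3 h, while its log2 differences from vehicle at 3 and 6 h were close, 1.88 and 1.78. At 3 h each member had 8.07 to 29.2% of its 6 h excess over vehicle. Without replicate 2 of the 6 h CBD group this was 10.9 to 37.6%. SLC39A10, a zinc importer, measured 3.54 ± 0.19 FPKM under CBD and 14.6 ± 0.61 FPKM in vehicle at 6 h, a log2 difference of -1.78 (limma adjusted p = 4.94e-21). By 24 h the difference was 0.03 (limma adjusted p = 0.654). The Golgi zinc transporter SLC30A6 was the third gene called at 6 h, with a log2 difference of 0.13. MTF1 itself changed by -0.06 at 6 h (limma adjusted p = 0.161) and was not called at any time.

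Lists of genes that respond to oxidants, heat or glucocorticoids, which can also induce metallothioneins, were counted at 6 h, by the same limma test and against the same shares of all genes. Of 11 NFE2L2 targets tested, which serve glutathione synthesis and oxidant defence, 8 were higher and 0 lower, with a median of 0.21 and with log2 differences of 1.47 for HMOX1, 1.08 for the cystine carrier SLC7A11, 0.52 for GCLM and 0.50 for NQO1. At 24 h all 11 were higher, and HMOX1 stood at 2.11, its largest difference of the 4 times, whereas the differences of the 7 metallothioneins on the same scale, from 0.62 to 3.19, were each below their 6 h value. Of 11 heat shock genes tested, 6 were higher and 0 lower at 6 h, with a median of 0.13, led by the chaperones HSPA1B at 0.50, HSPA1A at 0.40, DNAJB1 at 0.30 and HSPB1 at 0.23. At 24 h, 1 heat shock gene was higher and 6 were lower. Of 6 glucocorticoid-responsive genes, 1 was higher at 6 h, the kinase SGK1 at 0.35, and 4 were higher and 1 lower at 24 h. Of 9 copper handling genes, 1 was higher at 6 h, the mitochondrial copper chaperone COX17 at 0.17, and 1 was higher and 1 lower at 24 h. Of the 10 neuroblastoma markers, 1 was higher (MYCN, 0.36) and 3 were lower (among them CHGA at -0.29 and DBH at -0.23) at 6 h, and 1 was higher and 5 were lower at 24 h. Of the markers of other cells, 3 were tested, with none called at 6 h and 1 in each direction at 24 h.

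Genes other than metallothioneins that overlap the metallothionein cluster or lie within 500 kb of it differed by less than the members. The members were chosen for their difference in these samples, so nothing further is read from this. Of 12 such genes, 8 were tested, and 3 were higher and 0 lower at 6 h by limma, with a median log2 difference of 0.04, where 4.07% of all genes were called higher. None of the 8 exceeded 0.35 at 6 h. Among them were HERPUD1, a component of endoplasmic reticulum protein disposal, at 0.35 and the cilium gene BBS2, which overlaps the cluster on the opposite strand, at 0.14. NUP93, which begins 45.9 kb beyond MT1X, was not called at 6 h. At 24 h, 4 neighbours were higher and 1 was lower, where 20.8% of all genes were called higher and 21.3% lower. The differences of the members at 6 h on this scale were at least 2.81, the value of MT1H, which was 1.16 with 5 FPKM added and 5.92 with 0.1.

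**Figure D5:**
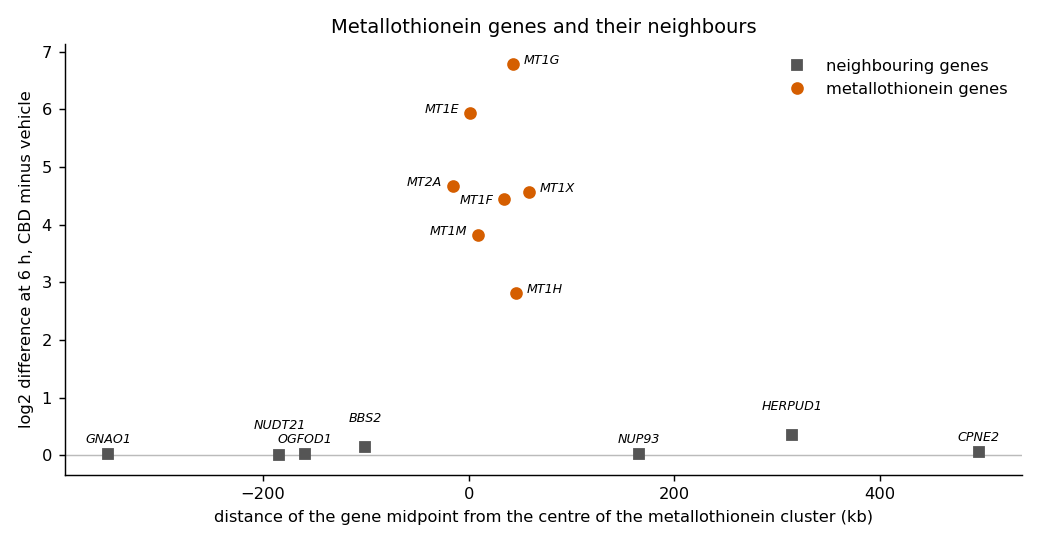
Log2 difference between CBD and vehicle at 6 h, on the log2(FPKM + 1) scale, against the distance of each gene's midpoint from the centre of the metallothionein cluster in kb. Circles are the 7 metallothionein genes, from 2.81 for MT1H to 6.80 for MT1G, and squares are 7 of the 8 tested neighbours. The metallothionein genes shown were chosen for this difference, and other metallothionein rows are left out. None of the 8 exceeds 0.35.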

How the data were processed

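RNA-Seq of polyadenylated RNA was analysed from 32 cultures, grouped by their labels. According to the methods, the authors used Trimmomatic (0.36) to trim single reads of 50 bases, placed them on hg19 by Tophat with up to 2 locations per read, and quantified transcripts in Cufflinks. The deposited FPKM were used as they stand, with no further scaling, and hold no read counts, so counting error is unknown. A deposited table of the authors' Cuffdiff fold changes and q-values was not used. The library kit is named differently in the labels and in the methods.

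The 7 members and the gene lists were chosen with earlier results of these data known. Genes with a mean of at least 1 FPKM (12621 of 22610) were tested as log2(FPKM + 1) with limma (3.58.1, R 4.3.3) in a single model of 8 group means with a trended prior. Contrasts were CBD against vehicle at each time, changes of that difference between consecutive times, and consecutive vehicle times. For the members, contrasts that involve CBD are descriptions. P-values were adjusted by Benjamini-Hochberg over all genes tested, with a threshold of 0.01. The code was tested on simulated data. All 7 members and all other metallothionein rows are named, plus MTF1, SLC30A1, up to 4 called genes per list with the largest difference at 6 h, and the 10 genes most correlated with the members. Positions and neighbours within 500 kb come from GENCODE lifted to GRCh37, the hg19 assembly, since the deposited table gives chromosomes only. Promoters come from RefSeq. Other values added before the logarithm, other filters and scalings, a replicate block, a model without trend and each library left out were tried. Same-numbered CBD and vehicle replicates of the same time did not deviate together (correlations of -0.0757 to 0.0935), so numbers were not treated as pairs. Whether the same number deviated alike at different times was not tested. CBD replicate 4 had the lowest sum of the 7 members at 3, 6, 12 and 24 h (173.1, 580.7, 357.1 and 44.0 FPKM). The highest sum was in replicate 2 at 3 and 6 h and in replicate 3 at 12 and 24 h. A few genes of these lists are not reported here by name.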

Additional observations from a re-analysis of the deposited data

Results flagged for a closer look

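In 5 of 52 groups of 4 cultures, a single culture stood apart from the others by Dixon's criterion at 95%, which chance meets in about 1 in 20 groups. MT1E measured 157.4 FPKM in CBD 6 h replicate 2. MT1X measured 7.39 FPKM in vehicle 12 h replicate 1. The other 3 were single low values in groups otherwise listed at 0, MT1H at 0.0592 FPKM in vehicle 3 h replicate 3 and 0.0577 FPKM in vehicle 12 h replicate 3, and MT1M at 0.0603 FPKM in vehicle 6 h replicate 2. Such groups are always flagged, and the 7 genes share libraries, so 5 of 52 cannot be set against 1 in 20.

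The limma interaction between consecutive times was past the threshold for every member at 1 or more steps, and its estimates are given as a description, since the members were chosen by their CBD values in these samples. From 3 to 6 h, the log2 change was 2.14 for MT1E, 1.82 for MT1F, 2.23 for MT1G, 2.23 for MT1H, 1.89 for MT1M, 1.78 for MT1X and 1.68 for MT2A. From 6 to 12 h it was -1.29 for MT1X. From 12 to 24 h it was -2.5 for MT1E, -1.65 for MT1F, -3.25 for MT1G, -1.39 for MT1H, -1.90 for MT1M, -2.66 for MT1X and -2.39 for MT2A.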

How the results depend on the processing

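The counts of members whose CBD effect changed, 7 from 3 to 6 h and 7 from 12 to 24 h, stayed at 7 with any single library left out. These counts are descriptions, since the members were chosen by their CBD values in the same samples. From 6 to 12 h, the count was 2 rather than 1, MT1E joining MT1X, with 5 added before the logarithm, with quantile normalization and with the replicate block, and 1 to 2 with single libraries left out. The replicate block changed no other count of members. With the vehicle samples alone, 1 member rather than 0 passed between 12 and 24 h in vehicle. With 0.1 added, MT1G changed by 0.19 rather than -0.36 from 6 to 12 h, MT1F and MT1M missed the threshold from 3 to 6 h and MT1F from 12 to 24 h. MT1M also missed it from 3 to 6 h with quantile normalization and from 12 to 24 h with 5 added. The difference of MT1H at 6 h, 2.81, was 1.16 with 5 added and 5.92 with 0.1, and that of MT1M, 3.81, was 1.90 and 6.88, since their vehicle samples were nearly all at 0. The cause of the other changes was not tested. With a minimum mean of 5 FPKM, MT1H and MT1M were not tested, and 5 of 5 passed at each of these steps. For MT2A in vehicle from 3 to 6 h, leaving out single libraries gave -0.0875 to 0.0176. The share of all genes called moved with single libraries, and the 265 genes whose CBD effect changed from 3 to 6 h became 151 without CBD 3 h replicate 2 and 602 without CBD 3 h replicate 1. Of the other all-gene counts that moved by more than 1.5 times, the 310 genes called at 3 h became 164 to 493, the 294 from 6 to 12 h became 183 to 375, the 1196 between vehicle 3 and 6 h became 737 to 1396 and the 615 between vehicle 6 and 12 h became 327 to 765. Without counts, the precision of vehicle values under 1 FPKM cannot be stated.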

Other observations

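The genes whose levels over the 32 samples were most like the mean of the 7 standardised metallothionein levels were CHAC1 (Pearson r = 0.905, Spearman rho = 0.788), which degrades glutathione, the phosphatase DUSP6 (r = 0.899, rho = 0.942), the serine synthesis enzyme PSAT1 (r = 0.892, rho = 0.913) and the amino acid carrier subunit SLC3A2 (r = 0.883, rho = 0.973). AIFM2, GARS, CSRP1, MYCNOS, NADK and VGF followed, with r from 0.876 to 0.856. The members themselves had r from 0.942 to 0.994. Each member is part of the mean it was compared with, so these values cannot be set beside those of other genes. Ranking by Spearman rho instead kept 6 of these 10 genes. The points share libraries, treatment and time, so these values describe the resemblance only. The differences of these genes were smaller than those of any metallothionein at 6 h, with the largest for CHAC1, whose log2 difference was 1.08, 1.16, 0.94 and 0.78 at 3, 6, 12 and 24 h and so declined less than that of MT1X. CSRP1, a LIM domain protein, had 0.35, 0.71, 0.48 and -0.10 at these times, and at 24 h its CBD mean of 11.6 ± 0.43 FPKM was below the vehicle mean of 12.6 ± 0.48 FPKM (SD, n = 4 each).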
